A study of Rattus norvegicus with 16 samples.

Results

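Hsd17b2, Cyp17a1, Srd5a1 and Hsd11b1 are steroid metabolising enzymes, and their liver transcripts were followed here in rats given dithiolethiones, sulphur heterocycles known to induce detoxication genes. The members are all probe sets whose gene symbol in the annotation of the array platform is 1 of these 4 names. That gave 3 probe sets of the 8740 on the array, 1 each for Hsd17b2 (X91234_at), Cyp17a1 (M21208mRNA_s_at) and Hsd11b1 (rc_AI105448_at), and all 3 were among the 5323 tested. The annotation used here lists no probe set for Srd5a1, so Srd5a1 is not analysed here.

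The liver is the main site where circulating steroid hormones are oxidised, reduced, hydroxylated and conjugated. Hsd17b2 encodes a hydroxysteroid dehydrogenase that inactivates oestradiol and testosterone by oxidising them to their keto forms. Cyp17a1 encodes a microsomal cytochrome P450 with hydroxylase and lyase activity that turns progestagens into androgen precursors and that receives electrons from P450 oxidoreductase. Hsd11b1 encodes the enzyme that regenerates active glucocorticoid, corticosterone in rats, from its inactive keto form inside the hepatocyte. Srd5a1 encodes a reductase that makes dihydrotestosterone from testosterone.

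Liver RNA came from 16 male Fischer F344 rats, 6 weeks old on arrival, in 4 groups with 4 arrays each. The control group received saturated sucrose by gavage, although its samples are titled as not treated, and it is called vehicle. The other groups received 0.3 mmol/kg of D3T (the unsubstituted dithiolethione ring), OLT (oltipraz, with a methyl and a pyrazinyl group) or TBD (with a tert-butyl group), on alternate days over 5 days. Each animal had 3 doses, and livers of all groups were collected 24 h after the final one. All values are log2 expression values made with GCRMA, so a difference of 1 is a 2-fold change, and the number of arrays limits their precision. On the second principal component, which carried 13% of the variance, OLT replicate 1 (-21.7) and TBD replicate 4 (-21.8) were lowest in their groups. Both groups were spread out there, the other OLT arrays from -12.6 to 8.55 and the other TBD arrays from -8.74 to 6.81. Results of the 3 enzymes are also given without OLT replicate 1 and TBD replicate 4 where they rest on these arrays.

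The 3 enzymes behaved differently from each other. Cyp17a1 was lower with each compound, 5.41-fold with OLT, 3.93-fold with TBD and 2.52-fold with D3T. Hsd17b2 was 4.21-fold lower with TBD and did not pass the test with D3T or OLT. Hsd11b1 stayed within 1.32-fold of vehicle in each compound group. A probe set is called when its Benjamini-Hochberg adjusted p in limma, over 5323 probe sets, is under 0.05. Against vehicle, 1 of the 3 was lower with D3T (background 12.2% of tested probe sets lower) and 0 higher (6.18%). With OLT 1 was lower (7.89%) and 0 higher (3.38%), and with TBD 2 were lower (9.47%) and 1 higher (3.55%). At an unadjusted p under 0.05, 2, 2 and 3 of the 3 passed with D3T, OLT and TBD in limma. These 3 comparisons share the same vehicle arrays.

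**Figure D1:**
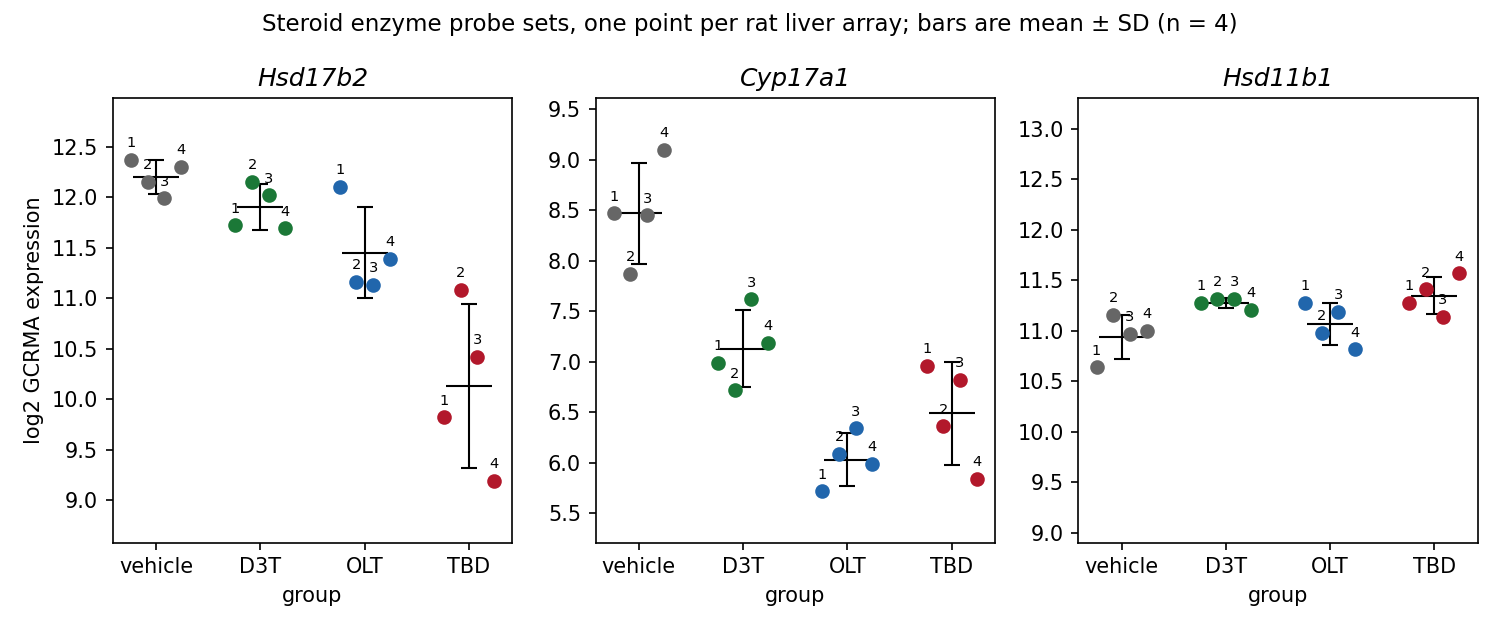
Log2 GCRMA expression (vertical axis, each panel spanning the same number of log2 units) of Hsd17b2, Cyp17a1 and Hsd11b1 in the groups vehicle, D3T, OLT and TBD. Points are single arrays numbered by replicate and bars are means ± SD (n = 4). Cyp17a1 lies below every vehicle array on all 12 compound arrays, Hsd17b2 spreads from 9.19 to 11.08 with TBD, and Hsd11b1 stays between 10.64 and 11.57 throughout.

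Cyp17a1 read 8.47, 7.87, 8.45 and 9.10 on vehicle replicates 1 to 4. It read 6.99, 6.72, 7.62 and 7.19 with D3T, 5.72, 6.09, 6.34 and 5.99 with OLT, and 6.96, 6.36, 6.82 and 5.84 with TBD. Every compound array therefore lay below the lowest vehicle array, and the probe set stayed above the array median on all 16 arrays. Group means were 8.47 ± 0.50 (SD, n = 4) in vehicle, 7.13 ± 0.38 with D3T, 6.03 ± 0.26 with OLT and 6.49 ± 0.51 with TBD. The groups did not overlap in any of the 3 comparisons with vehicle, as for 15.8%, 9.79% and 10.3% of probe sets that lay lower with D3T, OLT and TBD.

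The fall of Cyp17a1 from vehicle was -1.34 ± 0.28 (SE, adjusted p = 0.00414, limma) with D3T, -2.44 ± 0.28 (adjusted p = 0.000121) with OLT and -1.98 ± 0.28 (adjusted p = 0.000421) with TBD. These values leave 39.6%, 18.5% and 25.4% of the vehicle level. Lower calls in all 3 comparisons were made for 298 of the 5323 probe sets, or 5.6%, Cyp17a1 among them. Each of the 3 calls of Cyp17a1 was kept in all 8 fits that left out 1 array and in all 11 other alternatives. Over the fits that left out 1 array the difference ran from -1.54 to -1.13 with D3T, from -2.64 to -2.23 with OLT and from -2.18 to -1.76 with TBD.

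From high to low, Cyp17a1 ranked vehicle, D3T, TBD and OLT. D3T lay above OLT by 1.10 (95% interval 0.50 to 1.70), with no overlap of the groups, as at 3.49% of probe sets that lay higher with D3T. The adjusted p was 0.0881, and among the alternatives it went under 0.05 with array weights alone (0.99, adjusted p = 0.043). D3T lay above TBD by 0.64 (interval 0.04 to 1.24, adjusted p = 0.441), with an overlap between D3T replicate 2 and TBD replicates 1 and 3. TBD lay above OLT by 0.46 (interval -0.14 to 1.06, adjusted p = 1), with TBD replicate 4 at 5.84 inside the OLT range. No pair of compounds was separated for Cyp17a1 by these tests.

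Hsd17b2 read 12.37, 12.15, 11.99 and 12.3 on vehicle replicates 1 to 4. With D3T it read 11.72, 12.15, 12.02 and 11.69, with OLT 12.10, 11.16, 11.13 and 11.39, and with TBD 9.82, 11.08, 10.42 and 9.19. All 4 TBD arrays lay below every array of the other groups, while D3T and OLT each reached into the vehicle range, OLT through replicate 1 alone. The means were 12.20 ± 0.17 (SD, n = 4) in vehicle, 11.90 ± 0.23 with D3T, 11.45 ± 0.45 with OLT and 10.13 ± 0.81 with TBD. The TBD group had the largest SD among the 4 groups of the 3 probe sets, with replicate 4 lowest and replicate 2 highest.

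Hsd17b2 was lower with TBD, by -2.07 ± 0.32 (SE, adjusted p = 0.000746, limma), to 23.7% of vehicle. The call held in all 8 fits without 1 array, from -2.39 to -1.76, and without OLT replicate 1 and TBD replicate 4 (-1.76, adjusted p = 0.000355). Its difference was -0.31 (interval -0.99 to 0.37, adjusted p = 0.563) with D3T. With OLT it was -0.76 (interval -1.44 to -0.08, adjusted p = 0.158), and it passed without OLT replicate 1 and TBD replicate 4 (-0.97, adjusted p = 0.0156). From high to low the means ran in the order vehicle, D3T, OLT, TBD, and no neighbours in that order were separated by the test.

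Between compounds, Hsd17b2 was 3.41-fold higher with D3T than with TBD (1.77 ± 0.32 SE, adjusted p = 0.0183), with no overlap of the groups, as at 6.95% of probe sets that lay higher with D3T. It is the 1 of the 3 probe sets called there, against a background of 0.188% of tested probe sets higher. The call was lost without D3T replicate 2 (1.68, adjusted p = 0.0657), without D3T replicate 3 (1.73, adjusted p = 0.0597), after centring array medians (1.70, adjusted p = 0.0744) and in a fit on the 8 arrays compared (1.77, adjusted p = 0.149). TBD lay below OLT by 1.32 on the log2 scale (difference -1.32, interval -2.0 to -0.64), with no overlap of the groups, as at 0.77% of probe sets that lay lower with TBD. That difference did not pass (adjusted p = 0.671), where limma called 3 probe sets in all, and it passed without TBD replicate 2 (-1.64, adjusted p = 0.0466). D3T and OLT differed by 0.45 (interval -0.23 to 1.13, adjusted p = 0.579). In the main fit Hsd17b2 thus differed between TBD and D3T, by a call that the alternatives named above ended. Neither difference of OLT from the other compounds passed in that fit. The part of the substituents in these differences was not tested.

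Hsd11b1 read 10.64, 11.16, 10.97 and 11 on vehicle replicates 1 to 4. With D3T it read 11.28, 11.32, 11.32 and 11.21, with OLT 11.28, 10.98, 11.19 and 10.82, and with TBD 11.28, 11.41, 11.14 and 11.57. D3T arrays lay above all vehicle arrays and close together (SD 0.05, n = 4), as did 3 of 4 TBD arrays, while OLT overlapped vehicle. Its mean rose from 10.94 ± 0.22 in vehicle to 11.35 ± 0.18 with TBD, a difference of 0.41 ± 0.13 (SE, adjusted p = 0.0483, limma), or 1.32-fold.

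This call for Hsd11b1 rests close to the threshold. It was lost in 6 of 8 fits that left out 1 array, those without vehicle replicates 1, 3 or 4 or TBD replicates 1, 2 or 4, where the difference ran from 0.31 (adjusted p = 0.122, without vehicle replicate 1) to 0.43. It held in 4 of 11 other alternatives. With D3T the difference was 0.34 (interval 0.07 to 0.61, adjusted p = 0.077) with groups that did not overlap, as at 9.07% of probe sets that lay higher, and with OLT it was 0.13 (interval -0.14 to 0.40, adjusted p = 0.729). The compounds did not differ from each other by the test, with D3T against OLT at 0.21 (-0.06 to 0.48), TBD against OLT at 0.28 (0.01 to 0.55) and D3T against TBD at -0.06 (-0.33 to 0.21). In each of these 6 comparisons the interval lies within 0.68 of 0, so changes larger than that in either direction fall outside it.

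In limma, 0 of the 3 probe sets were called between D3T and OLT (background 1.07%) and 0 between TBD and OLT (background 0.0564%), against 1 and 2 at an unadjusted p under 0.05. TBD replicate 4, the lowest of its group on the second principal component, held the lowest TBD value of Hsd17b2 and Cyp17a1 and the highest of Hsd11b1. OLT replicate 1 held the highest OLT value of Hsd17b2 and Hsd11b1 and the lowest of Cyp17a1. Without these 2 arrays the fall of Cyp17a1 was -2.33 with OLT (adjusted p = 0.000189) and -1.76 with TBD (adjusted p = 0.000864). The residual SD between arrays of a group was 0.49 for Hsd17b2 and 0.42 for Cyp17a1, larger than that of 89.9% and 85.6% of tested probe sets, and 0.18 for Hsd11b1.

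**Figure D2:**
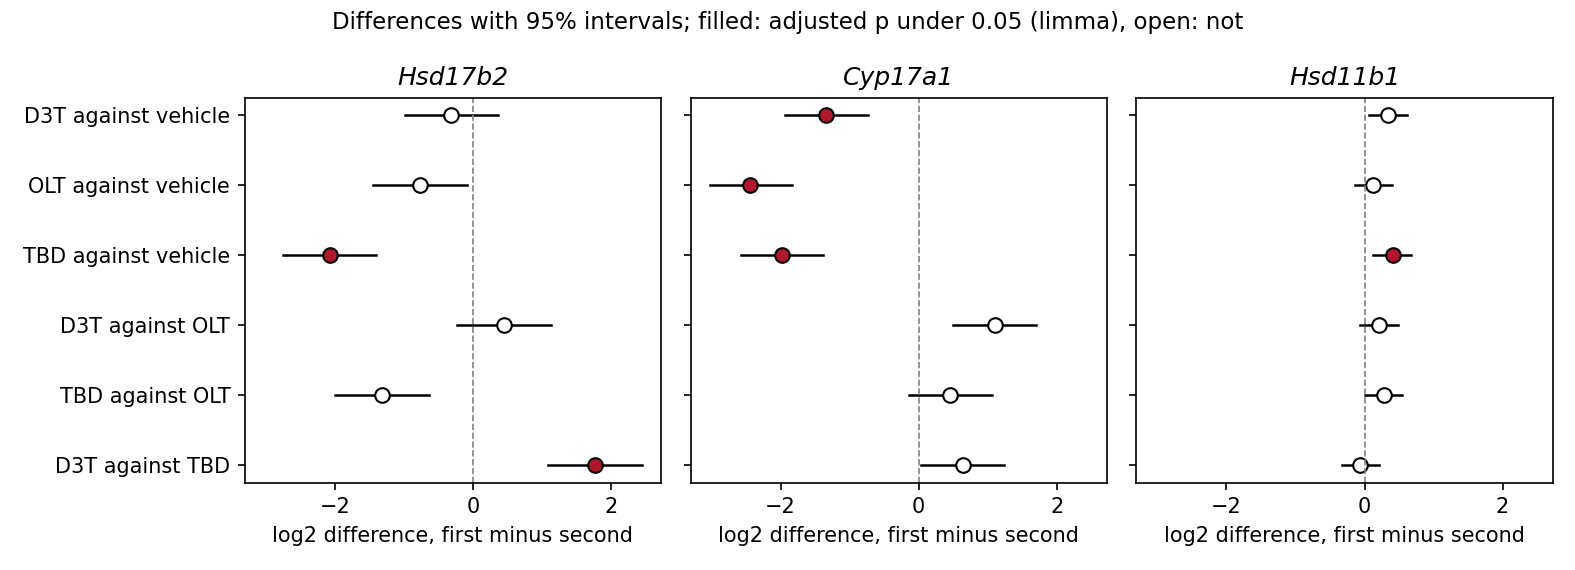
Log2 differences between group means (horizontal axis, first group minus second) with 95% intervals from the fit for the 6 comparisons and the 3 enzymes. Filled points passed an adjusted p under 0.05 and open points did not. Cyp17a1 is filled in all 3 comparisons with vehicle and Hsd17b2 in TBD against vehicle and D3T against TBD, while the Hsd11b1 points lie between -0.06 and 0.41.

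Other genes of steroid metabolism were read from fixed lists, each gene by its brightest tested probe set. P450 oxidoreductase Por, which passes electrons from NADPH to microsomal P450s such as that of Cyp17a1, was lower with each compound. It fell from 9.67 in vehicle to 8.42 with D3T (-1.25 ± 0.28 SE, adjusted p = 0.00675, limma, n = 4), to 8.16 with OLT (-1.52 ± 0.28, adjusted p = 0.00322) and to 8.02 with TBD (-1.65 ± 0.28, adjusted p = 0.00156). The groups did not overlap, as for 15.8%, 9.79% and 10.3% of probe sets that lay lower with D3T, OLT and TBD. The calls of Por were kept under every alternative run. Its other 2 tested probe sets also lay lower in each comparison, from -2.66 to -1.22, and 5 of these 6 differences passed. Cytochrome b5 Cyb5a, which supports the lyase activity of the same enzyme, differed by 0.12, 0.35 and 0.45 with D3T, OLT and TBD and did not pass (adjusted p = 0.684, 0.247 and 0.11), although the TBD difference passed without TBD replicate 1 (0.57, adjusted p = 0.0489). Its other 2 tested probe sets lay on the opposite side of 0 and did not pass either. Por was the 1 called of 5 tested genes of steroidogenic P450s, their redox partners and cofactor suppliers in each comparison, beside 13.1%, 8.92% and 10% of all tested genes lower with D3T, OLT and TBD, with 0 higher (limma; 0, 0 and 1 higher at an unadjusted p under 0.05).

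Of 14 other steroid oxidoreductases tested, 3 were lower and 0 higher with each compound (limma), beside 13.1%, 8.92% and 10% of 3104 tested genes lower with D3T, OLT and TBD. At an unadjusted p under 0.05, 1, 0 and 1 were higher. Their median difference was -0.04, -0.20 and -0.29, against 0.03, -0.03 and -0.02 over all tested genes. After centring array medians the counts lower were 3, 0 and 1, with 1 higher with D3T. Over all tested probe sets, centring took the counts lower from 652, 420 and 504 to 659, 210 and 283. After quantile normalization the list had 3, 3 and 2 lower (599, 343 and 383 over all), with 1 higher with D3T and 1 with TBD. Without OLT replicate 1 and TBD replicate 4 the list had 2, 2 and 3 lower (704, 505 and 601 over all), with 1 higher with D3T.

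Akr1c14, the hepatic hydroxysteroid dehydrogenase that reduces the keto group of androgens and progestins, fell by 0.86 ± 0.15 (SE, adjusted p = 0.00115, limma) with D3T and by 0.71 ± 0.15 (adjusted p = 0.00561) with TBD. With OLT it fell by 0.57 ± 0.15 (adjusted p = 0.0229), a call that ended after centring and when vehicle replicate 4 or OLT replicates 2 or 3 were left out (adjusted p up to 0.108). A second Akr1c14 probe set differed by -0.77, -0.66 and -1.17 and did not pass. Hsd17b12, which acts mainly in fatty acid elongation, fell by 0.75, 0.67 and 0.73 with D3T, OLT and TBD (adjusted p = 0.0134, 0.0353 and 0.0209). Its OLT call was lost in 6 of the 8 fits without 1 array (all but those without vehicle replicate 1 and OLT replicate 1), and its TBD call without vehicle replicate 4 or TBD replicates 1 or 2 (adjusted p up to 0.126 and 0.0804). Both calls also ended after centring, and the OLT call without a filter and with the replicate block.

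Hsd3b7, an enzyme of bile acid synthesis, differed by -0.38 with D3T and -0.40 with TBD, both at an adjusted p of 0.0476. Both calls were lost in 5 of 8 fits without 1 array, with vehicle replicates 2, 3 and 4 among them in each (adjusted p up to 0.338 and 0.333 over the alternatives). Without OLT replicate 1 and TBD replicate 4 the adjusted p was 0.0585 and 0.0506. Hsd17b10, a mitochondrial dehydrogenase, passed with OLT (-0.59, adjusted p = 0.0352), a call that ended when OLT replicates 1, 2 or 3 or vehicle replicates 2 or 4 were left out (adjusted p up to 0.141) and without OLT replicate 1 and TBD replicate 4 (adjusted p = 0.0651). The steroid reductase Akr1d1 did not pass by its brightest probe set, at 0.04, -0.05 and -0.32 with D3T, OLT and TBD. Its second probe set was higher, by 0.90, 0.98 and 0.65 (adjusted p = 0.00533, 0.00473 and 0.0407), so its probe sets disagree. Hsd11b2, which opposes Hsd11b1 by inactivating glucocorticoid and is known for its role in kidney, lay between 2.41 and 2.69, below the median of every array.

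Among 16 tested P450s of a fixed list of steroid hydroxylases, 1 was higher and 6 lower with D3T, 3 higher and 0 lower with OLT, and 3 higher and 1 lower with TBD, with 1 lower at an unadjusted p under 0.05 with OLT. Of these, Cyp2a3, Cyp3a9 and Cyp1b1 were dim, with group means from 3.27 to 4.35, and were not called. Over all tested genes, 4.61%, 2.61% and 2.8% were higher and 13.1%, 8.92% and 10% were lower. The testosterone hydroxylase Cyp2a1 rose with each compound, by 1.79, 1.24 and 1.14 (adjusted p = 0.000525, 0.00877 and 0.0129). Cyp2b2 rose by 2.37 with OLT (adjusted p = 0.00316) and 2.12 with TBD (adjusted p = 0.00535) and differed by 0.35 with D3T (adjusted p = 0.641). Cyp3a2, a testosterone hydroxylase of adult male liver, fell by 2.62 with D3T (adjusted p = 1.35e-06) and differed by -0.22 and -0.46 with OLT and TBD, and it was lower with D3T than with OLT (-2.40, adjusted p = 1.23e-05) and TBD (-2.16, adjusted p = 0.000101). Cyp3a23-3a1 was lower with D3T (-0.54, adjusted p = 0.0461, limma) and higher with OLT (1.07, adjusted p = 0.0018) and TBD (0.84, adjusted p = 0.00589). The D3T call ended without vehicle replicates 2, 3 or 4 or D3T replicates 1 or 3 (adjusted p up to 0.125). It also ended after centring, with the replicate block and without a filter. The other tested probe sets of this gene differed by -1.61 (adjusted p = 4.99e-05, limma), -1.28 (adjusted p = 0.000747) and -0.13 (adjusted p = 0.646) with D3T. They ran from 0 to 0.92 with OLT and from 0.02 to 0.85 with TBD. Only the highest of them passed with OLT (adjusted p = 0.0027) and with TBD (adjusted p = 0.00384). Cyp3a18 was lower with D3T (-0.78, adjusted p = 0.0183), a call lost without vehicle replicates 2 or 3 or D3T replicate 1 (adjusted p up to 0.0584). With TBD Cyp3a18 differed by -0.67 (adjusted p = 0.0506), and it passed without OLT replicate 1 and TBD replicate 4 (-0.80, adjusted p = 0.0151).

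Of 9 genes of steroid conjugation and deconjugation, 2 were higher with each compound and 4, 3 and 3 were lower with D3T, OLT and TBD. The shares over all tested genes were 4.61%, 2.61% and 2.8% higher and 13.1%, 8.92% and 10% lower. After centring array medians the counts were 0 higher and 3 lower, 1 and 1, and 1 and 3. Over all tested probe sets the counts after centring were 513 higher and 659 lower, 151 and 210, and 143 and 283. As deposited they were 329 and 652, 180 and 420, and 189 and 504. Ugt2b1, a glucuronosyltransferase, rose by 2.94 with OLT (adjusted p = 2.44e-05) and 2.90 with TBD (adjusted p = 2.85e-05). With D3T it was 0.95 higher (adjusted p = 0.0278), a call that the omission of D3T replicates 1 or 4 or of vehicle replicate 1 ended, as did centring (adjusted p up to 0.0925). The hydroxysteroid sulfotransferases Sult2a1, Sult2a2 and Sult2a6, close paralogs whose probes can share signal, were lower with D3T (-2.80, -2.02 and -2.44) and with TBD (-2.43, -2.03 and -2.14). With OLT, Sult2a1 fell by 1.45 (adjusted p = 0.0237), a call ended by the omission of OLT replicates 2 or 4 or of vehicle replicates 2 or 4 (adjusted p up to 0.067). There Sult2a2 fell by 1.32 (adjusted p = 0.0189), a call lost without OLT replicate 2 (adjusted p = 0.0554), and Sult2a6 differed by -1.38 (adjusted p = 0.0523). That Sult2a6 difference passed in 5 alternatives, among them the replicate block (adjusted p = 0.0374) and the fit without OLT replicate 1 and TBD replicate 4 (-1.44, adjusted p = 0.00086). Of its other 2 tested probe sets, 1 was called with OLT (-1.67, adjusted p = 0.0408) and 1 was not (-0.61, adjusted p = 0.148). A dim Sult2a1 probe set (mean 4.30) lay at 0.36, 0.04 and 0.06 and did not pass. Steroid sulfatase Sts, which releases steroids from their sulphates, was lower with D3T (-1.13, adjusted p = 0.0364) and OLT (-1.21, adjusted p = 0.0374). Both Sts calls were lost without vehicle replicates 2 or 4 and without any of the 4 arrays of the compound group (adjusted p up to 0.129 and 0.146). With TBD Sts differed by -0.91 (adjusted p = 0.113), and it passed without TBD replicate 4, alone (-1.25, adjusted p = 0.0122) or with OLT replicate 1 (adjusted p = 0.0155).

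**Figure D3:**
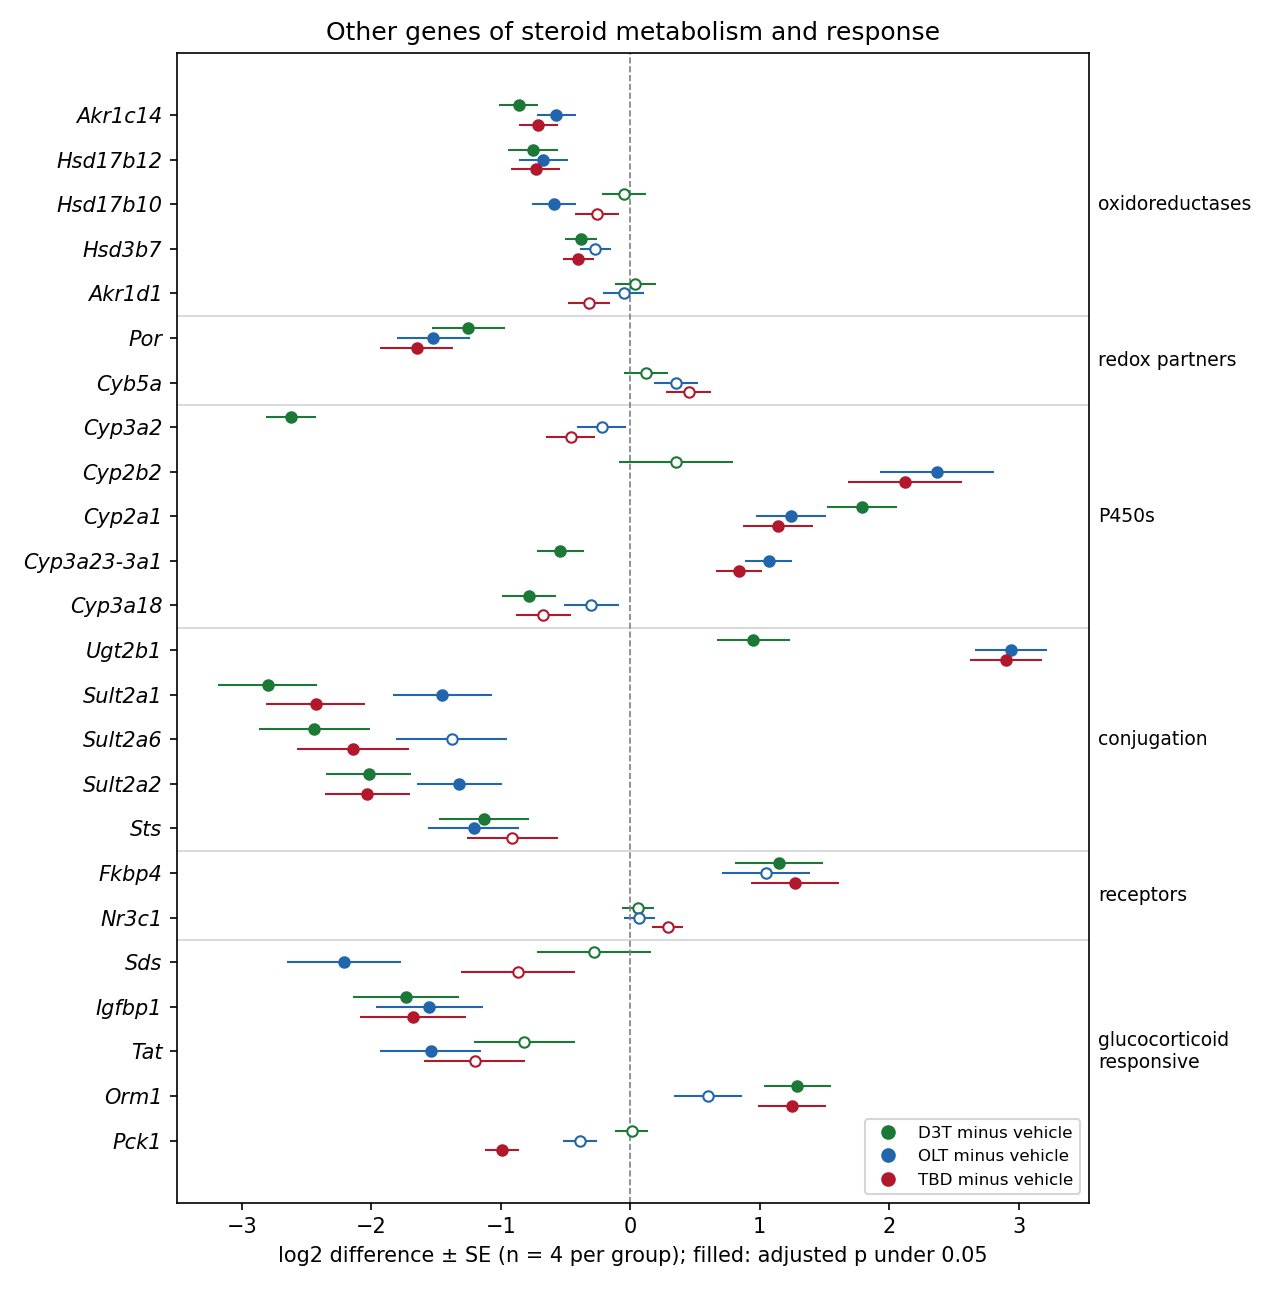
Log2 difference from vehicle ± SE (horizontal axis, n = 4 per group) of other genes of steroid metabolism and response, grouped by list. Green, blue and red points are D3T, OLT and TBD, filled where the adjusted p was under 0.05. Por lies between -1.65 and -1.25 with all 3 compounds, while Akr1c14 and Hsd17b12 lie between -0.86 and -0.57.

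Genes that respond to glucocorticoid were read beside Hsd11b1. The glucocorticoid receptor gene Nr3c1 differed by 0.06, 0.07 and 0.29 with D3T, OLT and TBD and did not pass (adjusted p = 0.797, 0.937 and 0.151). The receptor co-chaperone Fkbp4 was higher with D3T (1.15, adjusted p = 0.029) and TBD (1.27, adjusted p = 0.0228). These calls were lost after centring, without vehicle replicate 2 in both, without vehicle replicate 1 or D3T replicates 1 or 4, and without TBD replicates 1 or 3 (adjusted p up to 0.0943 and 0.0616). Its other 2 tested probe sets did not pass, at 0.33 and 0.92 with D3T and at 0.58 and 0.24 with TBD. With OLT Fkbp4 differed by 1.05 (adjusted p = 0.0606), and it passed without vehicle replicate 4 (1.32, adjusted p = 0.0248) or OLT replicate 3 (1.27, adjusted p = 0.0376). Fkbp4 was the 1 called gene of 5 steroid receptors, chaperones and carriers tested, with 0 of 5 called with OLT (limma, 2 at an unadjusted p under 0.05). Over all tested genes, 4.61%, 2.61% and 2.8% were higher with D3T, OLT and TBD.

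Of 9 glucocorticoid responsive liver genes tested, 1 was higher and 2 lower with D3T, 0 and 4 with OLT (1 higher at an unadjusted p under 0.05), and 1 and 3 with TBD. Over all tested genes, 4.61%, 2.61% and 2.8% were higher and 13.1%, 8.92% and 10% lower. After centring array medians the lower counts were 2, 2 and 2, beside 659, 210 and 283 over all tested probe sets (652, 420 and 504 as deposited). The medians of the 9 genes as deposited were -0.39, -0.86 and -0.66, against 0.03, -0.03 and -0.02 over all tested genes. The insulin-like growth factor binding protein Igfbp1 fell by 1.73 with D3T (adjusted p = 0.00952). It fell by 1.55 with OLT (adjusted p = 0.0249), a call that ended when OLT replicates 2 or 3 or vehicle replicates 2 or 4 were left out (adjusted p up to 0.0851), and by 1.68 with TBD (adjusted p = 0.0146), lost without vehicle replicate 2 (adjusted p = 0.0537). Tyrosine aminotransferase Tat fell by 1.54 with OLT (adjusted p = 0.0199), and the same 4 omissions that ended the OLT call of Igfbp1 ended this one (adjusted p up to 0.0617). With TBD Tat differed by -1.2 (adjusted p = 0.0603), which passed in 5 alternatives and without TBD replicates 3 or 4 (adjusted p from 0.00425 to 0.169 over all alternatives). With D3T it differed by -0.82 (adjusted p = 0.176), and the groups did not overlap, as for 15.8% of probe sets that lay lower with D3T. Serine dehydratase Sds fell by 2.21 with OLT (adjusted p = 0.00473). Tryptophan dioxygenase Tdo2 fell by 0.69, 0.86 and 0.66 (adjusted p = 0.0133, 0.00583 and 0.022), the TBD call ending without vehicle replicates 2 or 4 or TBD replicates 2 or 3 (adjusted p up to 0.104 over all alternatives). The gluconeogenic enzyme Pck1 fell by 0.99 with TBD (adjusted p = 0.000217) and differed by 0.01 with D3T, and these groups differed (0.99, adjusted p = 0.00162, D3T higher). With OLT Pck1 differed by -0.39 (adjusted p = 0.0597), and it passed without OLT replicate 1 (-0.48, adjusted p = 0.028) or vehicle replicate 2 (-0.46, adjusted p = 0.0452). The acute phase gene Orm1 rose by 1.29 with D3T (adjusted p = 0.00325) and by 1.25 with TBD (adjusted p = 0.00542). Orm1 was the 1 member of this list called higher, and the other members called against vehicle were lower. Many members respond to other signals as well, and the part of glucocorticoid in these differences was not tested.

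Of 9 growth hormone signalling genes tested, 2 were lower with D3T, 0 with OLT and 1 with TBD, with 0 higher in each (limma; 1, 0 and 0 higher and 2, 0 and 2 lower at an unadjusted p under 0.05). The share lower over all tested genes was 13.1%, 8.92% and 10%, so the counts with OLT and TBD lie near or below it. The circulating growth factor Igf1 was lower with D3T (-1.08, adjusted p = 0.0127) and TBD (-0.90, adjusted p = 0.042). The TBD call was lost without any 1 of the vehicle replicates or without TBD replicates 2 or 4 (adjusted p up to 0.0932). It was also lost without a filter, with the replicate block, after quantile normalization, after centring and with the 40th percentile of the array as covariate. With OLT its brightest probe set differed by -0.37 (adjusted p = 0.541). The other 4 tested probe sets of Igf1 ran from -1.87 to 0.20 with D3T, from -1.25 to 0.72 with OLT and from -1.60 to 0.60 with TBD. The lowest of these was called with D3T (adjusted p = 0.000136, limma), OLT (adjusted p = 0.00331) and TBD (adjusted p = 0.000525). Another was called with D3T alone (-1.27, adjusted p = 0.0177), and the rest were not called. Igfals was lower with D3T (-1.04, adjusted p = 0.0151, limma). This call ended without D3T replicates 3 or 4 and after quantile normalization (adjusted p up to 0.0524). Igfals differed by -0.55 with OLT (adjusted p = 0.246) and by -0.78 with TBD (adjusted p = 0.077). The TBD difference passed without TBD replicate 3 and with array weights. With D3T, another Igfals probe set was called (-1.03, adjusted p = 0.0092) and a dim one was not (-0.14).

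The genes whose values lay nearest to each enzyme were found by the root mean square difference over 16 arrays, after each gene was centred on its vehicle mean, among 3101 genes. Nearest to Cyp17a1 were the clock gene Per2 (0.51), the glycolysis regulator Pfkfb1 (0.59), the macrophage gene Aif1 (0.63) and the complement factor gene Cfp (0.64), where the median over all genes was 1.74. Per2 differed from vehicle by -1.71, -1.89 and -1.93 with D3T, OLT and TBD. Nearest to Hsd17b2 were the alkenal and prostaglandin reductase Ptgr1 (0.53), the kinase gene Pim3 (0.59), the glycogen synthase Gys2 (0.61) and the clock output gene Dbp (0.62), with a median of 1.2. Ptgr1 differed by 0.29, -0.88 and -1.73 and Dbp by -0.41, -1.43 and -2.39. The other tested probe sets of Pfkfb1 (2) and Dbp (1) lay on the same side of 0 and did not pass against vehicle. Nearest to Hsd11b1 were Arfgap1 (0.18), Ugt2b15 (0.19), Rpl19 (0.19) and Gjb1 (0.19), with a median of 0.38. These likenesses describe 16 arrays that share the same 4 groups.

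**Figure D4:**
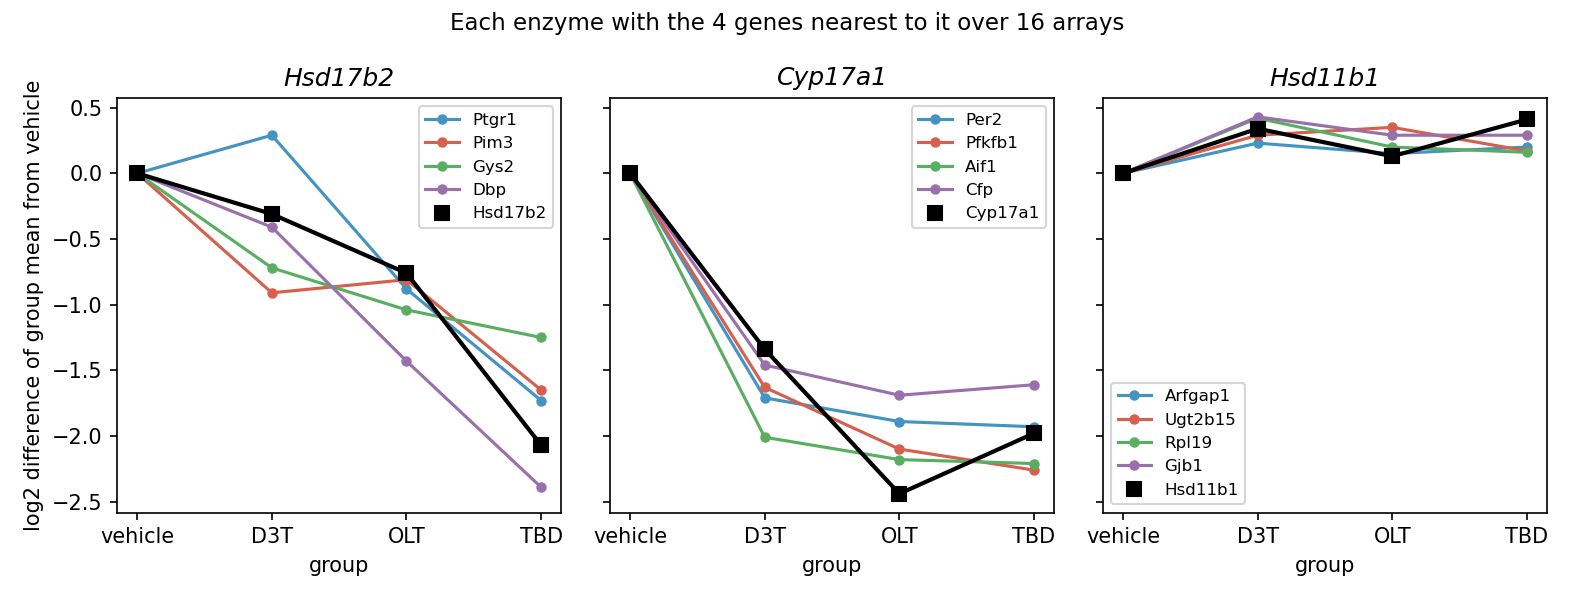
Log2 difference of the group mean from vehicle (vertical axis) for each enzyme (black squares) and the 4 genes nearest to it (coloured points), with lines that only join the groups. Hsd17b2 and Dbp are lowest with TBD (-2.07 and -2.39), and Cyp17a1 is lowest with OLT (-2.44) where Per2 lies at -1.89.

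Markers of cell types were read in the same arrays. Hepatocyte markers summed over 7 of 8 fixed genes lay at 92 to 93.2 in vehicle, 93.3 to 95.1 with D3T, 92.2 to 93.8 with OLT and 92.6 to 93.9 with TBD. Of 9 markers of adrenal or gonadal steroidogenic cells, 6 have a probe set (Star, Cyp11a1, Cyp11b2, Cyp19a1, Cyp21a1 and Nr5a1), and all 6 lay below the median of all 16 arrays. Of 5 tested Kupffer cell and macrophage markers of 9 fixed, 4 were lower with each compound, Aif1 the most, and Csf1r did not pass. The share lower over all tested genes was 13.1%, 8.92% and 10% with D3T, OLT and TBD. The summed level of the 5 markers was 38.8 to 41.1 in vehicle, 34.3 to 35.5 with D3T, 32.8 to 35.3 with OLT and 33.6 to 36.0 with TBD. Cyp17a1 is among the 5.6% of tested probe sets called lower in all 3 compound groups. In bulk liver, fewer cells of a type and less RNA per cell cannot be told apart.

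Pericentral hepatocyte markers summed over 4 of 6 genes lay at 45.1 to 46.9 in vehicle, 38.3 to 42.4 with D3T, 42 to 43.5 with OLT and 39.4 to 41.5 with TBD. Glul and Oat were lower with each compound, and Cyp2e1 with OLT (-0.40, adjusted p = 0.0317) and TBD (-0.55, adjusted p = 0.00472) but not with D3T (-0.26, adjusted p = 0.117). Cyp1a2 was lower with D3T (-2.2, adjusted p = 0.000155) and TBD (-1.76, adjusted p = 0.000969) and lay on the other side with OLT, at 12.00 against 11.23 in vehicle (0.77, adjusted p = 0.0997). The OLT calls of Glul and Cyp2e1 were fragile: that of Glul ended without vehicle replicate 2 or OLT replicates 2 or 3 (adjusted p up to 0.0774), and that of Cyp2e1 in 6 of 8 fits without 1 array, all but those without vehicle replicate 3 and OLT replicate 1 (adjusted p up to 0.0901). Periportal markers summed over 6 of 7 genes lay at 65 to 67.7 in vehicle, 65.3 to 67 with D3T, 60 to 62.5 with OLT and 63.4 to 65.1 with TBD. Stellate markers over 3 of 8 genes lay at 21.1 to 22.5, 16.9 to 17.7, 18 to 23.2 and 18.1 to 21.2 in the same order, and endothelial markers over 4 of 8 at 19.7 to 20.7, 17.3 to 19.9, 18.7 to 22.2 and 17.2 to 20. The stellate genes did not move together. Col1a1 had means of 6.96 in vehicle and 2.94, 4.80 and 4.12 with D3T, OLT and TBD, and Col3a1 also lay lower. Dcn lay higher, at 5.61, 6.45 and 6.31 against 5.39 in vehicle. Among the endothelial genes, Lyve1 had means of 7.28 in vehicle and 5.37, 6.52 and 6.07 with the compounds. Pecam1 and Vwf lay below the median of every array, and Kdr did not pass. Among the periportal genes, Sds had means of 11.55 in vehicle and 9.33 with OLT, and Hal also lay lower with OLT (7.56 against 8.43). Ass1 lay at 12.21 in both of these groups. With TBD Ass1 lay at 12.64, while Pck1 lay at 11.21 against 12.20 in vehicle. The part of these shifts in the differences of Cyp17a1, Hsd17b2 and Hsd11b1 was not tested.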

How the data were processed

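For each of 16 one-colour arrays the authors deposited log2 values of 8740 probe sets. The submitters' processing notes name GCRMA as the method. The GCRMA version and settings are not given in the sources used here. Values ran from -1.21 to 15.9, and array medians from 3.27 to 3.58. Its background step shrinks weak signals, which bears on dim genes more than on the 3 enzymes. Per the labels' protocols 16 animals were assigned to 4 groups, and p-values measure the spread between arrays, animal and technical combined. Scan dates and slides were not used here.

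Symbols came from the platform annotation: 7006 probe sets carry 1, 308 several and 1426 none, and those with several were not named. Of the first, 6985 matched a GRCr8 gene table through Entrez ID. Probe sets above their array's 40th percentile on at least 4 arrays were tested (5323, for 3104 genes). limma 3.58.1 in R 4.3.3 fitted the group means over all 16 arrays (residual df 12, prior df 2.41), two-sided, for 6 comparisons, with Benjamini-Hochberg adjustment over 5323 probe sets and a threshold of 0.05. The fit was tested on simulated data. Figures used Python 3.11.15, pandas 2.3.3 and matplotlib 3.10.9.

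Replicate numbers did not pair the arrays: of 24 same-numbered pairs from different groups, deviations from the group means correlated from -0.524 to 0.323, and 8 were over 0.1. The 72 pairs with other numbers ran from -0.406 to 0.55, and 23 were over 0.1.

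The members and gene lists were chosen with earlier results of these data known. Named genes were the members, the list genes past the threshold with the largest differences (at most 5 per list), a few fixed genes (H6pd, 1 of them, has no probe set named here), and the 4 genes nearest to each member. Of the genes chosen in this way, 19 have several tested probe sets, and where the brightest was called (38 cases against vehicle) 0 had another called the opposite way. Tdo2 and further cell type markers were named besides. Alternatives were other filters, an intensity trend, a fit on the 8 arrays compared, a replicate block, quantile normalization, centred array medians, a floor at the 20th percentile, array weights and leaving out each array. A 40th percentile covariate, and leaving out OLT replicate 1 and TBD replicate 4 together, were chosen after seeing the data.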

Additional observations from a re-analysis of the deposited data

How the results depend on the processing

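The 4 calls of Cyp17a1 against vehicle and of Hsd17b2 in TBD against vehicle kept their direction and call under all alternatives run. The call of Hsd11b1 with TBD was lost with the replicate block (0.41, adjusted p = 0.0886), without a filter (adjusted p = 0.0656), with an intensity trend (0.0686), after quantile normalization (0.0569), after centring (0.121), in the fit on 8 arrays (0.133) and without OLT replicate 1 and TBD replicate 4 (0.33, adjusted p = 0.0972). The Hsd11b1 difference between D3T and TBD turned from -0.06 to 0.01 without TBD replicate 4, alone or with OLT replicate 1, and ran from -0.13 to 0.01 without 1 array. With D3T, Hsd11b1 passed with array weights (0.33, adjusted p = 0.000286) and with the percentile covariate (0.35, adjusted p = 0.0481). The replicate block changed no other call of the 3 enzymes.

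Counts of the 3 enzymes called became 1 with array weights in D3T against OLT, 0 after centring and in the 8-array fit in D3T against TBD, 2 with array weights and 2 with the covariate in D3T against vehicle, and 2 without OLT replicate 1 and TBD replicate 4 in OLT against vehicle. Without 1 array they ran from 0 to 1 in D3T against TBD and in TBD against OLT. All probe sets called against vehicle numbered 981 with D3T (2263 with array weights, 1741 with the covariate), 600 with OLT (1066 with array weights, 361 after centring) and 693 with TBD (1333 with array weights, 426 after centring, 361 in the 8-array fit). D3T against OLT gave 57 (171 with array weights, 92 after quantile normalization, 149 with the covariate, 88 without both arrays, 30 to 51 without 1 array). D3T against TBD gave 35 (152 with array weights, 13 after centring, 117 with the covariate, 8 in the 8-array fit, 19 to 34 without 1 array), and TBD against OLT 3 (3 to 6 without 1 array). The share of calls that were higher was 33.5%, 30% and 27.3% with D3T, OLT and TBD as deposited and 52.9%, 46.5% and 44.9% after quantile normalization. The causes were not tested. Averaging probe sets per gene was not run, since each enzyme has 1. Signal does not limit these 3 probe sets, which lay above the array median on every array.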
